A study of Mus musculus with 6 samples.

Results

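Collagen modifying and crosslinking genes were examined in the tibialis anterior (TA) muscle of the mouse, a muscle of the front of the lower leg. The 10 genes were taken by symbol from a table of 41709 genes: the prolyl hydroxylase subunits P4ha1 and P4ha2, the lysyl hydroxylases Plod1 and Plod2, the collagen chaperone Serpinh1, the procollagen proteinase Bmp1 and its enhancer Pcolce, and the crosslinking oxidases Lox, Loxl1 and Loxl2. All 10 had a mean of at least 1 TPM (a level per transcript length, relative to a total that is the same in each library) and entered the test, as did 11611 genes in all.

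In the study, one TA of each male C57BL/6J mouse received by electroporation a pCMV6 plasmid for Flag-tagged mouse Lrpprc of wild-type sequence (LrpprcWT, the control), and the TA of the other leg received the same plasmid with proline 27 replaced by alanine (LrpprcP27A), a variant that cannot be dihydroxylated at that residue. Muscles were collected after 14 days. The RNA-seq data hold 3 LrpprcWT and 3 LrpprcP27A muscles with replicate numbers 1 to 3. The study used mice of 4 and 27 months, and the age of those sequenced is not given in the sources used here. Both groups carried an introduced Lrpprc, no muscle without it was sequenced, the CMV promoter of such plasmids is active in many cell types, and electroporation reaches only some of the cells of a muscle.

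Collagen chains are modified inside the endoplasmic reticulum before they fold into a triple helix. Prolyl 4-hydroxylases make the hydroxyprolines that stabilise the helix, lysyl hydroxylases make hydroxylysines that later take part in crosslinks, and both families are 2-oxoglutarate oxygenases that need iron, oxygen and ascorbate. The chaperone Serpinh1 (HSP47) holds the folded procollagen on its way out of the cell. Outside the cell, Bmp1 removes the C-terminal propeptides with the help of Pcolce, and the copper enzymes of the lysyl oxidase family oxidise lysines so that fibrils become crosslinked. In muscle, these genes are used mostly by the connective tissue cells between the fibres, and several of them, such as P4ha1, Plod2 and Lox, are known to be induced by hypoxia.

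In LrpprcP27A muscles, 8 of the 10 genes fell and the 2 prolyl hydroxylase genes did not pass the test in either direction (limma on log2(TPM + 1), Benjamini-Hochberg adjusted p under 0.05 over all 11611 genes). Of all genes tested, 23.3% were called lower and 1.34% higher under the same rule, and no gene of the 10 was called higher, also at an unadjusted p under 0.05. Lox fell most, to 21.1% of its LrpprcWT mean, and Plod1 least among the 8, to 63.1%. The median log2 fold change of the 10 genes was -1.15, beside -0.32 over all genes tested, of which 88.0% had a value below 0. In 7 of the 10 genes, every LrpprcP27A muscle lay below every LrpprcWT muscle, as in 47.6% of all genes tested, and in no gene was every LrpprcP27A muscle higher, as in 3.51% of all genes tested. With the 2 muscles of the same number paired, the 8 genes also fell, where 48.4% of all genes were called lower and 2.69% higher. In unpaired fits that left out 1 muscle, the minimum of 1 TPM was applied again to the muscles left. The number of all genes called lower then ran from 14 without LrpprcWT replicate 3 to 6918 without LrpprcWT replicate 2.

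**Figure D1:**
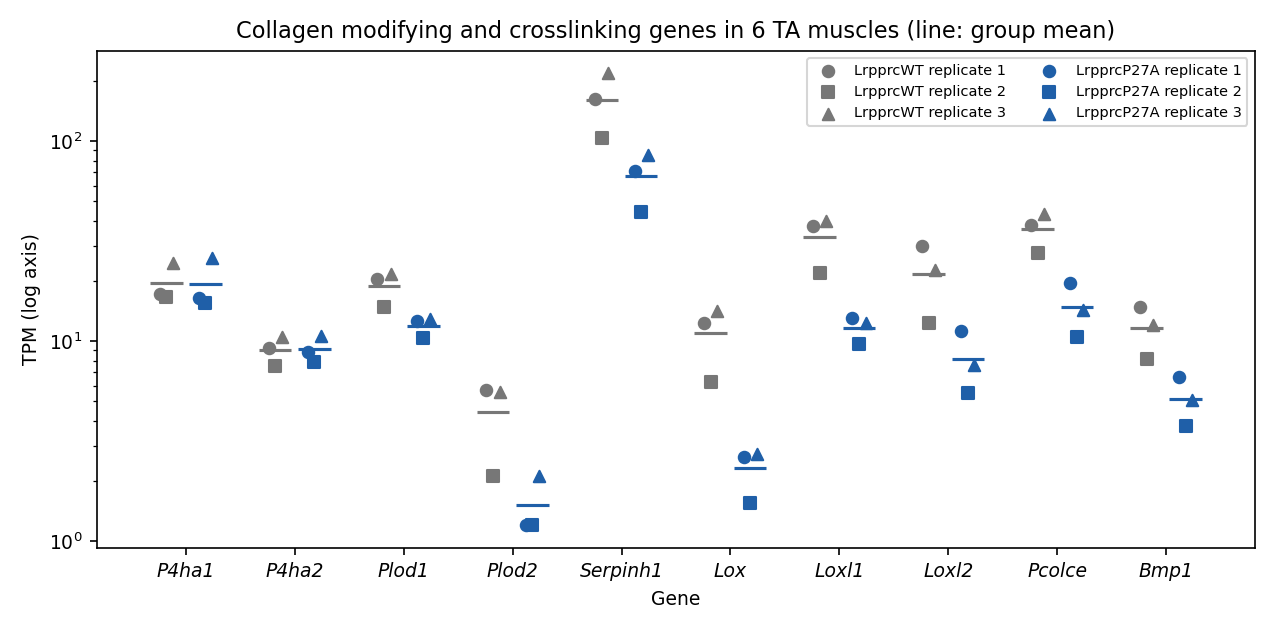
TPM of the 10 genes on a log axis in the 3 LrpprcWT muscles (grey) and the 3 LrpprcP27A muscles (blue), with circles, squares and triangles for replicates 1, 2 and 3 and a line for each group mean. P4ha1, P4ha2 and, at a single point, Plod2 overlap between groups, and in the other 7 genes every LrpprcP27A muscle is below every LrpprcWT muscle.

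In the unpaired fit, the 8 calls depended on the scaling and on single muscles. Since TPM values of a library sum to a fixed total, the values of all genes were also scaled by the median of their ratios, which moved the median log2 fold change of all genes from -0.32 to 0.00. On that scale 3 of the 10 genes were called lower (Lox, Loxl1 and Pcolce), where 6.03% of all genes were lower and 5.25% higher, and the log2 fold change of each of the 8 genes was still below 0. With the muscles paired on that scale, the 8 genes were called lower and 1, P4ha2, higher, where 15.8% of all genes were lower and 13.4% higher. Without LrpprcWT replicate 3, none of the 10 was called by limma, while 8 had an unadjusted p under 0.05, and 14 of all genes tested were called lower. The number of the 10 called was 2 without LrpprcWT replicate 1 (267 of all genes), 3 without LrpprcP27A replicate 2 (520) and 4 without LrpprcP27A replicate 3 (444).

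**Figure D2:**
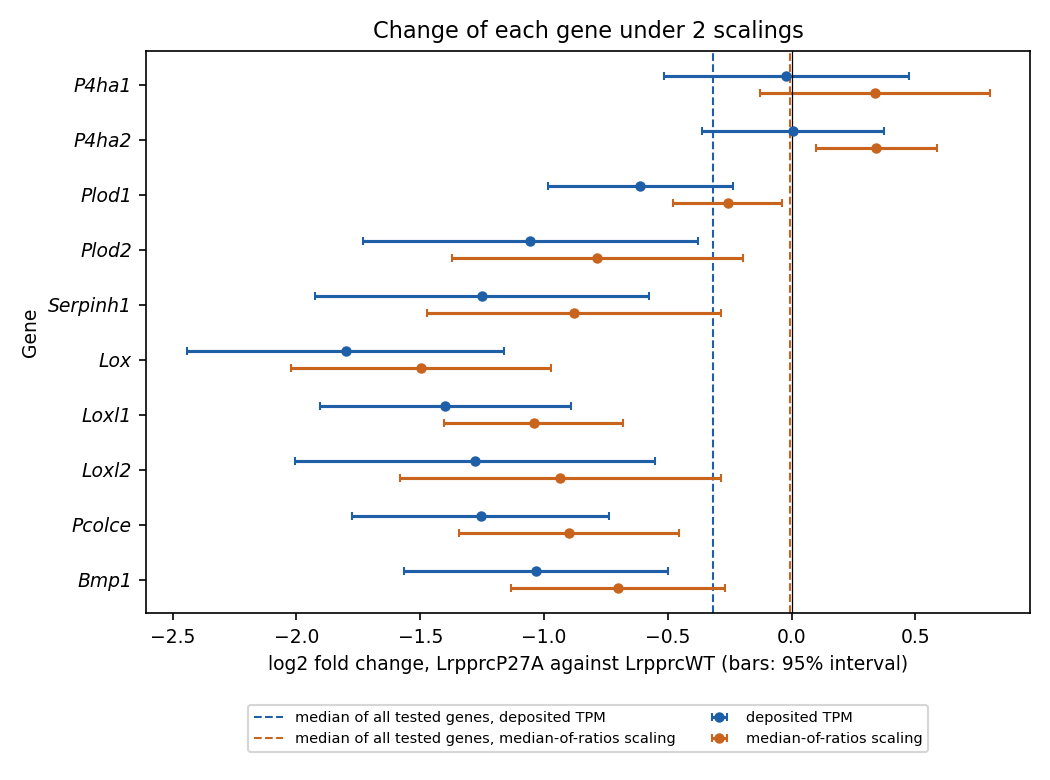
log2 fold change of LrpprcP27A against LrpprcWT for each gene, with its 95% interval, from deposited TPM (blue) and after median-of-ratios scaling (orange). Dashed lines mark the median of all tested genes on each scale, -0.32 and 0.00, and the 8 genes below P4ha2 have intervals that lie below 0 on both scales.

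The libraries differed between groups in other ways too. The values were therefore also rescaled without mitochondrially encoded and ribosomal RNA genes. The number of collagen modifying and crosslinking genes called lower by limma then went from 8 to 3, with 8 at an unadjusted p under 0.05. Over all genes, the number called lower went from 2705 to 660. The part of the difference in Lrpprc in the results was not tested. The 18S ribosomal RNA gene Rn18s-rs5 was listed at 8874 to 17614 TPM in LrpprcWT and at 37023 to 44435 TPM in LrpprcP27A muscles. Mitochondrially encoded genes held 36.0 to 45.2% of TPM in LrpprcWT and 44.2 to 46.1% in LrpprcP27A muscles. Lrpprc itself, whose reads can come from the plasmid or from the mouse gene, was at 35.1, 37.0 and 75.2 TPM in LrpprcWT replicates 1 to 3 and at 26.9, 29.7 and 26.0 TPM in LrpprcP27A replicates 1 to 3. LrpprcWT replicate 3 was the highest of the 6. The log2 fold change of Lrpprc was -0.72 ± 0.26 (SE, n = 3 and 3; limma adjusted p = 0.0652, and 0.00243 with the muscles paired).

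The promoters of P4ha1, Loxl1 and Pcolce are shown because they set a gene that did not pass the test beside 2 that fell. Each run holds the 200 bases before the start of the Ensembl canonical transcript, 5′ to 3′ on the strand of the gene, and capitals mark the hypoxia response core, ACGTG or GCGTG on either strand. They lie at chr10:59158892-59159091 (plus strand), chr9:58220496-58220695 (minus strand) and chr5:137609750-137609949 (minus strand) of GRCm39.
P4ha1: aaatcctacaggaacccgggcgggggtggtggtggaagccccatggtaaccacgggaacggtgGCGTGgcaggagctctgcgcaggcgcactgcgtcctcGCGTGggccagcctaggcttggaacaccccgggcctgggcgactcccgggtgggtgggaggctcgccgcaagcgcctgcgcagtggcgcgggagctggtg
Loxl1: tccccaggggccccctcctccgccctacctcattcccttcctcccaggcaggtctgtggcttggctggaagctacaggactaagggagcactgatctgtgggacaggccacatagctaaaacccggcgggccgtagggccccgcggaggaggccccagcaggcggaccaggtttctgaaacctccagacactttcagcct
Pcolce: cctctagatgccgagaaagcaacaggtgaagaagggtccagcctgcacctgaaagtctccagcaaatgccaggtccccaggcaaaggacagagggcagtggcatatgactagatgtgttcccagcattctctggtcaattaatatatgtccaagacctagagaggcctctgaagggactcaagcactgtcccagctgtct

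The P4ha1 window held the core 2 times and the other windows shown did not hold it. Over the same windows of the 10 genes, the core was found 3 times in P4ha2, 1 time in Plod1, 4 times in Plod2, 3 times in Lox and 1 time in Bmp1, and not in Serpinh1, Loxl1, Loxl2 or Pcolce. So 6 of the 10 genes held it, beside 36.8% of 21770 protein-coding promoters, and those 6 include both genes that did not pass the test and 4 that fell. The GC box, GGGCGG on either strand, was in 8 of the 10 windows and in 34.8% of all promoters. CCAAT on either strand was in 1 of the 10, that of Loxl2, and in 32.3% of all, and the AP-1 letters TGANTCA were in none of the 10 and in 4.93% of all. No match of the core shared a base with a GC box. These are matches of letters in a window and say nothing of a factor.

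P4ha1 and P4ha2 encode the catalytic alpha subunits of the collagen prolyl 4-hydroxylases. P4ha1 (ENSMUSG00000019916, chr10:59159092-59209126, plus strand, 15 exons in the canonical transcript) was at 17.2, 16.6 and 24.6 TPM in LrpprcWT replicates 1, 2 and 3 and at 16.5, 15.6 and 26.0 TPM in LrpprcP27A. The groups overlapped almost fully, with replicate 3 the highest of both. The log2 fold change was -0.02 ± 0.22 (SE, n = 3 and 3), with a 95% interval from -0.51 to 0.47 (limma adjusted p = 0.94). P4ha2 (ENSMUSG00000018906, chr11:53981553-54022494, plus strand) was at 9.28, 7.48 and 10.4 TPM in LrpprcWT and at 8.86, 7.84 and 10.6 TPM in LrpprcP27A. Again the order of the replicates was the same in both groups. The log2 fold change was 0.00 ± 0.16, with a 95% interval from -0.36 to 0.37 (limma adjusted p = 0.982).

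On the median-of-ratios scale both values stood above 0, at 0.34 for P4ha1 (95% interval -0.13 to 0.80, limma adjusted p = 0.271) and 0.34 for P4ha2 (0.10 to 0.59, adjusted p = 0.0707). With the muscles paired on that scale, P4ha2 was called higher (limma adjusted p = 0.0259) and P4ha1 was not (0.056). P4ha1 made up 68.0% ± 2.79 (SD, n = 3) of the summed TPM of both genes in LrpprcWT and 67.6% ± 3.16 in LrpprcP27A, a share that does not depend on the scaling (two-sided exact permutation test, p = 1, where the smallest p of 3 against 3 is 0.1). The third alpha subunit gene, P4ha3, was under the minimum for the test, at 0.664 to 1.77 TPM in LrpprcWT and 0.0325 to 0.384 TPM in LrpprcP27A. The beta subunit gene P4hb, named after its values were seen, fell from 159, 118 and 178 TPM to 102, 89.3 and 94.0 TPM, with a log2 fold change of -0.65 ± 0.15 (limma adjusted p = 0.0256). Its protein, protein disulfide isomerase, also serves the folding of many other proteins.

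Plod1 and Plod2 encode lysyl hydroxylases, Plod1 acting mainly on lysines of the helix and Plod2 on those of the telopeptides at the chain ends. Plod1 (ENSMUSG00000019055, chr4:147991574-148021356, minus strand) was at 20.4, 14.8 and 21.6 TPM in LrpprcWT and at 12.6, 10.4 and 12.9 TPM in LrpprcP27A. Every LrpprcP27A muscle lay below every LrpprcWT muscle, and the log2 fold change was -0.61 ± 0.16 (SE, n = 3 and 3; limma adjusted p = 0.0342). Plod2 (ENSMUSG00000032374, chr9:92424119-92490494, plus strand) was at 5.68, 2.11 and 5.55 TPM in LrpprcWT and at 1.20, 1.21 and 2.11 TPM in LrpprcP27A. LrpprcP27A replicate 3 was marginally above LrpprcWT replicate 2, so the groups overlapped, and the log2 fold change was -1.06 ± 0.30 (limma adjusted p = 0.0382), understated at such low levels by the added 1 TPM.

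Plod1 made up 81.8% ± 5.05 of the summed TPM of Plod1 and Plod2 in LrpprcWT (SD, n = 3) and 88.9% ± 2.76 in LrpprcP27A, a difference that did not pass the two-sided exact permutation test (p = 0.2). The third family member, Plod3, which also adds sugars to hydroxylysine, was at 11.2, 8.40 and 13.8 TPM in LrpprcWT and at 7.60, 6.60 and 8.07 TPM in LrpprcP27A, with a log2 fold change of -0.50 ± 0.18 that did not pass the test (limma adjusted p = 0.0651, and 0.00445 with the muscles paired). Plod3 was named after its values were seen.

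Serpinh1 (ENSMUSG00000070436, chr7:98994220-99005076, minus strand) had the highest level of the 10 genes, above 96.3% of all genes tested in LrpprcWT muscles. It was at 163, 104 and 219 TPM in LrpprcWT and at 70.9, 44.1 and 85.3 TPM in LrpprcP27A. In both groups replicate 2 was lowest and replicate 3 highest, and the groups did not overlap. The log2 fold change was -1.25 ± 0.30 (SE, n = 3 and 3; limma adjusted p = 0.0262). Within the pairs it was -1.19, -1.21 and -1.35, a narrower range than that of Pcolce or of any of the oxidases.

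Bmp1 encodes the procollagen C-proteinase, which also activates the Lox precursor. Bmp1 (ENSMUSG00000022098, chr14:70711689-70758178, minus strand) was at 14.8, 8.13 and 12.1 TPM in LrpprcWT and at 6.59, 3.78 and 5.10 TPM in LrpprcP27A. The groups did not overlap, and the log2 fold change was -1.03 ± 0.23 (SE, n = 3 and 3; limma adjusted p = 0.0247). Its enhancer Pcolce (ENSMUSG00000029718, chr5:137603365-137612046, minus strand) was at 38.0, 27.8 and 43.1 TPM in LrpprcWT and at 19.5, 10.5 and 14.4 TPM in LrpprcP27A. Every LrpprcP27A value was again below every LrpprcWT value, with a log2 fold change of -1.26 ± 0.23 (limma adjusted p = 0.016). Pcolce was among the 3 genes also called on the median-of-ratios scale, at -0.90 ± 0.19 (limma adjusted p = 0.0347).

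Of the 10 genes, the 3 lysyl oxidases had the largest decreases on the log2(TPM + 1) scale, while by the ratio of the means Plod2, at 33.9% of its LrpprcWT mean, stood below Loxl1 (35.1%) and Loxl2 (37.4%). Lox (ENSMUSG00000024529, chr18:52649136-52663110, minus strand), the main oxidase of fibrillar collagen and elastin, was at 12.4, 6.22 and 14.2 TPM in LrpprcWT and at 2.65, 1.55 and 2.74 TPM in LrpprcP27A. The lowest LrpprcWT muscle stood well above the highest LrpprcP27A muscle. The log2 fold change was -1.80 ± 0.28 (SE, n = 3 and 3; limma adjusted p = 0.0126), and 0.56% of the genes tested had a lower value. Loxl1 (ENSMUSG00000032334, chr9:58195014-58220495, minus strand), known for its part in elastic fibres, was at 37.8, 22.0 and 40.0 TPM in LrpprcWT and at 13.1, 9.63 and 12.3 TPM in LrpprcP27A. The groups were far apart, and the log2 fold change was -1.40 ± 0.22 (limma adjusted p = 0.0129). On the median-of-ratios scale Lox was at -1.50 (limma adjusted p = 0.0243) and Loxl1 at -1.04 (0.0239).

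Loxl2 (ENSMUSG00000034205, chr14:69846209-69933283, plus strand), an oxidase linked to collagen IV of basement membranes, was at 29.9, 12.3 and 22.8 TPM in LrpprcWT and at 11.2, 5.51 and 7.60 TPM in LrpprcP27A. Replicate 1 was highest and replicate 2 lowest in both groups, and LrpprcWT replicate 2 stood only just above LrpprcP27A replicate 1. The log2 fold change was -1.28 ± 0.32 (SE, n = 3 and 3; limma adjusted p = 0.0288). Loxl2 shares 943 exonic bases with R3hcc1 on the opposite strand in GENCODE vM39, and the library kit does not mark strand, so reads in those bases cannot be told apart. R3hcc1 was at 10.5 to 11.3 TPM in LrpprcWT and at 7.56 to 8.60 TPM in LrpprcP27A, with a log2 fold change of -0.35 ± 0.12 (limma adjusted p = 0.0601, and 0.0272 with the muscles paired). Shorter exonic overlaps were found in Plod2 (503 bases, B430319G15Rik), Loxl1 (160, Gm57034), Bmp1 (153, Gm52136) and Pcolce (112, with Fbxo24 on the same strand).

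The share of Lox among the oxidases was then compared. Lox made up 15.5, 15.3 and 18.5% of the summed TPM of Lox, Loxl1 and Loxl2 in LrpprcWT and 9.82, 9.27 and 12.1% in LrpprcP27A. The groups did not overlap, and the means were 16.4% ± 1.79 and 10.4% ± 1.49 (SD, n = 3). The two-sided exact permutation test gave p = 0.1, the smallest it can give, so the difference could not reach 0.05, nor could that within pairs, whose smallest p is 0.25.

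**Figure D3:**
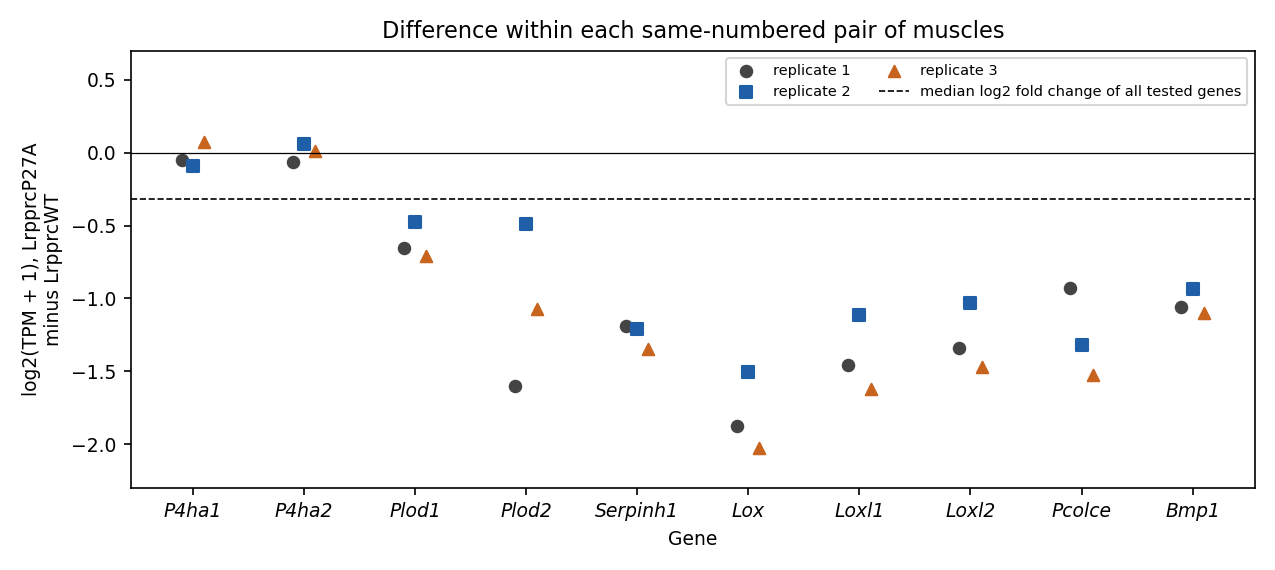
Difference in log2(TPM + 1), LrpprcP27A minus LrpprcWT, within each pair of muscles of the same replicate number, for the 10 genes, with a dashed line at the median log2 fold change of all tested genes. The 3 points of each of the 8 genes from Plod1 to Bmp1 lie below that line, and those of P4ha1 and P4ha2 lie between -0.09 and 0.08.

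The 8 genes also varied together between muscles of one group. LrpprcWT replicate 2 had the lowest value of its group for all 10 genes, and LrpprcP27A replicate 2 for 9 of 10. The median-of-ratios scaling factors, taken over genes at large, were also lowest in replicate 2 of each group. They were 0.969 in LrpprcWT, beside 1.22 and 1.25, and 0.847 in LrpprcP27A, beside 0.893 and 0.895. Low values there were thus not particular to the 10 genes, and the share of all genes lowest there is not given here. Correlations across the 6 muscles were taken after each group mean was taken out. Between pairs of the 8 genes they ran from 0.52 to 1.00 with a median of 0.87 (28 pairs), and P4ha1 and P4ha2 correlated at 0.87. P4ha2 also correlated with each of the 8, from 0.61 (Loxl2) to 0.97 (Serpinh1), so varying together was not particular to the 8. P4ha1 correlated with them from 0.16 (Loxl2) to 0.80 (Serpinh1). Such correlations over all genes are not given here. These values describe 6 libraries that share their scaling and, within pairs, a mouse if the replicate numbers pair them. The genes most like the mean profile of the 10 over the 6 muscles were Niban2 (Pearson r = 0.9994), Czib (0.9990), Trim25 (0.9988), Stt3a (0.9986) and Tapbp (0.9983). Such likeness was common, since 2302 of 11601 genes, or 19.8%, had r of at least 0.95.

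Other genes of collagen processing were counted next. Of 29 listed genes, 24 were tested, 14 fell and none rose in the limma test, with a median log2 fold change of -0.71 and 1 higher at an unadjusted p under 0.05. The shares over all genes tested were 23.3% called lower and 1.34% higher. Crtap, a part of the prolyl 3-hydroxylase complex, fell from 23.8, 15.9 and 25.8 TPM to 9.66, 5.18 and 7.75 TPM (log2 fold change -1.43 ± 0.24, limma adjusted p = 0.0138). Fkbp10, a prolyl isomerase that works with Serpinh1 and the lysyl hydroxylases, fell from 16.7, 7.74 and 14.9 TPM to 5.10, 3.46 and 4.14 TPM (-1.38 ± 0.26, limma adjusted p = 0.0168). Pxdn, a peroxidase that crosslinks collagen IV, fell by 1.24 on the log2 scale (limma adjusted p = 0.0259). The number that fell was 1 without LrpprcWT replicate 1, 0 by limma without LrpprcWT replicate 3 (15 at an unadjusted p under 0.05), and 5 without either LrpprcP27A replicate 2 or 3. Over all genes, 267, 14, 520 and 444 were called lower in these fits, in that order.

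The most abundant genes of that list that did not pass were Tgm2 and Mia3. Tgm2, a transglutaminase, was at 47.4 to 65.7 TPM in LrpprcWT and 38.5 to 55.1 TPM in LrpprcP27A (log2 fold change -0.29 ± 0.17, limma adjusted p = 0.194). Mia3, which helps load large procollagen into transport carriers, was at 35.1, 32.1 and 29.8 TPM in LrpprcWT and at 38.1, 43.2 and 43.3 TPM in LrpprcP27A (0.35 ± 0.11, adjusted p = 0.0525). Every LrpprcP27A muscle was above every LrpprcWT muscle for Mia3, and with the muscles paired it was called higher (limma adjusted p = 0.0265), alone in the list. P4ha3, Adamts3, Tll1, Tll2 and Loxl4 were too low to test.

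Of the collagens that these enzymes act on, 7 of 8 tested fibrillar chains fell, with a median log2 fold change of -1.73. Among all genes tested, 23.3% were called lower. Col1a1 went from 491, 324 and 453 TPM to 164, 58.2 and 73.0 TPM (log2 fold change -2.22 ± 0.34, limma adjusted p = 0.0124). Col3a1 fell by 2.14 (adjusted p = 0.0116) in the limma test, Col1a2 fell by 1.88 (adjusted p = 0.0153), and Col11a2, at 1.34 to 1.80 TPM in all 6 muscles, did not pass (-0.10, limma adjusted p = 0.524). Without LrpprcWT replicate 3 none of the chains was called by limma, while 7 had an unadjusted p under 0.05, and 14 of all genes were called lower. Set against Col1a1, P4ha1 was at 3.50, 5.14 and 5.44 TPM per 100 TPM of Col1a1 in LrpprcWT and at 10.1, 26.8 and 35.7 in LrpprcP27A. The groups did not overlap (two-sided exact permutation test, p = 0.1, the smallest possible with n = 3 and 3). Serpinh1 was at 33.2, 31.9 and 48.3 TPM per 100 TPM of Col1a1 in LrpprcWT and at 43.3, 75.8 and 117 in LrpprcP27A, where the groups overlapped (exact p = 0.2). Lox was at 2.52, 1.92 and 3.14 in LrpprcWT and at 1.62, 2.66 and 3.75 in LrpprcP27A, with group means of 2.53 and 2.67 (exact p = 0.9). These ratios do not depend on the scaling of a library, and they were chosen after the values of Col1a1 were seen. P4ha1 was at 99.5% of its LrpprcWT mean and Col1a1 at 23.3%. The higher P4ha1 ratio thus restates the decrease of Col1a1, and its test adds nothing on P4ha1 itself.

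**Figure D4:**
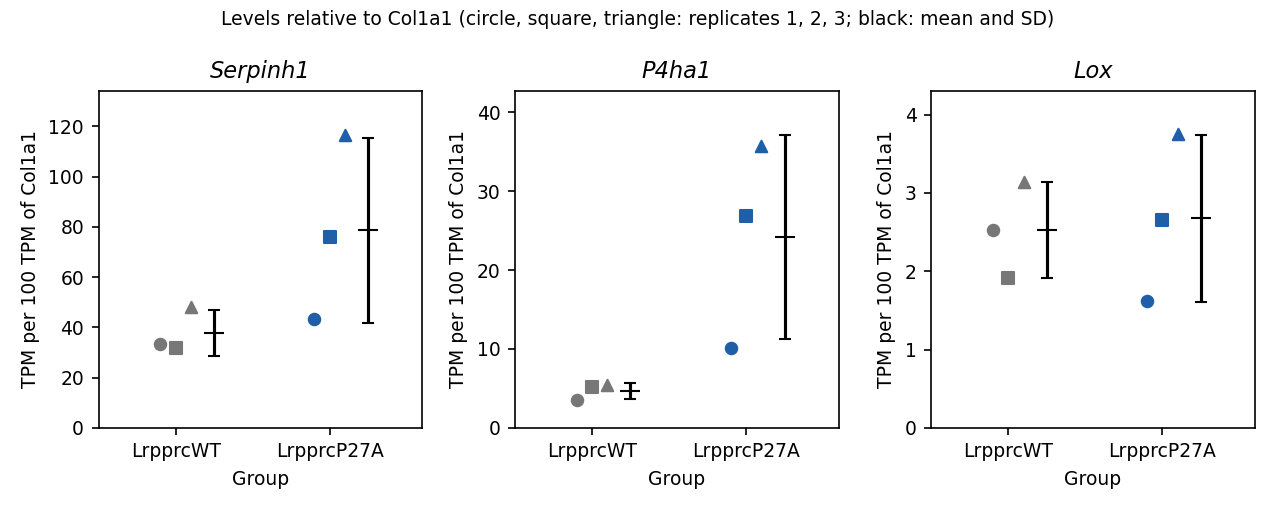
TPM of Serpinh1, P4ha1 and Lox per 100 TPM of Col1a1 in each muscle (circles, squares and triangles for replicates 1, 2 and 3), with the mean and SD of each group in black and axes that start at 0. The P4ha1 ratio stands higher in all 3 LrpprcP27A muscles, while the Serpinh1 and Lox ratios overlap between groups.

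Other oxygenases that use 2-oxoglutarate but do not act on collagen served as a comparison. Of 18 listed genes, 15 were tested, 3 fell and none rose in the limma test, with a median log2 fold change of -0.13, and 1, Egln1, was higher at an unadjusted p under 0.05. Of all genes tested, 23.3% were called lower. Egln3, an oxygen sensor that marks the HIF alpha subunits, was at 28.9, 24.2 and 33.7 TPM in LrpprcWT and at 18.1, 12.0 and 18.7 TPM in LrpprcP27A (log2 fold change -0.81 ± 0.19, limma adjusted p = 0.0255). Jmjd8 fell by 0.53 (adjusted p = 0.0246) and Asph, which hydroxylates EGF-like domains, by 0.40 (0.0374) in the limma test. The most abundant that did not pass were Phyh of peroxisomal lipid breakdown, at 163 to 203 TPM (-0.13, limma adjusted p = 0.292), and Egln1, the main HIF prolyl hydroxylase. Egln1 was at 111, 133 and 118 TPM in LrpprcWT and at 146, 151 and 156 TPM in LrpprcP27A (0.32 ± 0.10, limma adjusted p = 0.0532, and 0.0307 with the muscles paired). On the median-of-ratios scale, 4 of the 15 were called higher and none lower (1 at an unadjusted p under 0.05), where 5.25% of all genes were higher, so the direction for this list depends on the scaling. The number that fell was 0 by limma without LrpprcWT replicate 1, LrpprcWT replicate 3 or LrpprcP27A replicate 2 (3 at an unadjusted p under 0.05 in each). It was 1 without LrpprcP27A replicate 3 and 5 without LrpprcWT replicate 2. Over all genes, 267, 14, 520, 444 and 6918 were called lower in these fits, in that order.

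**Figure D5:**
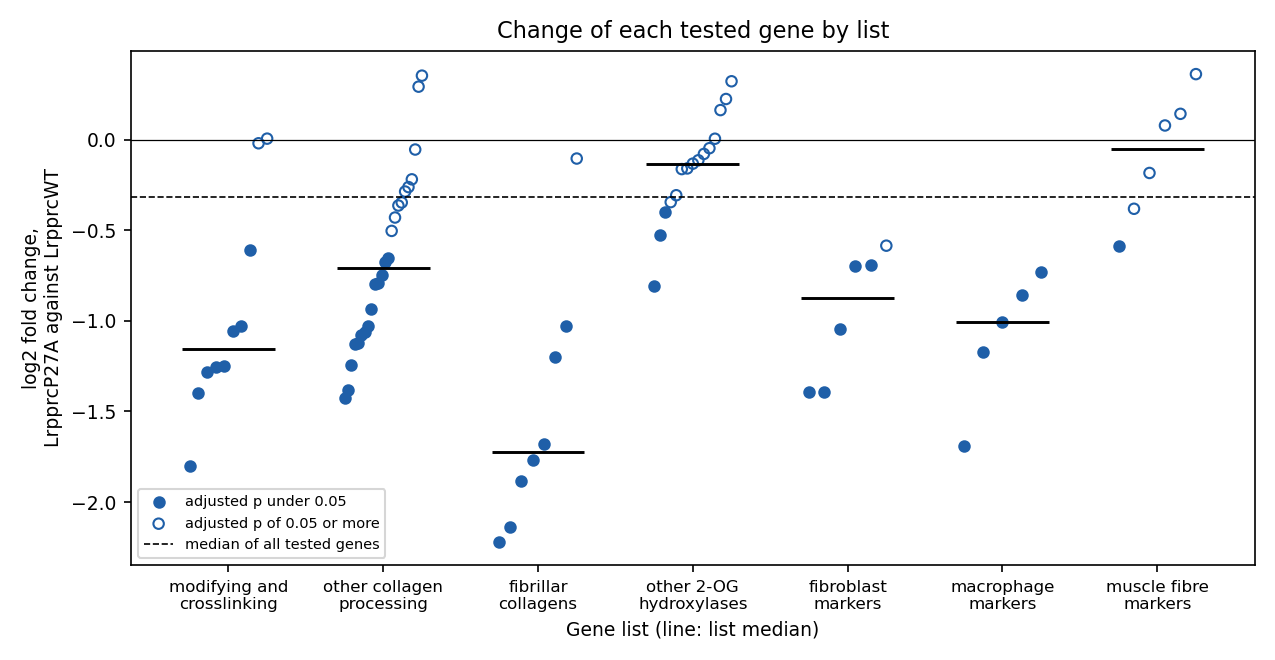
log2 fold change of LrpprcP27A against LrpprcWT for each tested gene of 7 lists, filled where the adjusted p was under 0.05, with a line at each list median and a dashed line at the median of all tested genes. The medians are -1.15 for the modifying and crosslinking genes, -0.71 for other collagen processing genes, -1.73 for fibrillar collagens and -0.13 for other 2-oxoglutarate hydroxylases.

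Whole muscle holds several cell types, and fewer cells of a type cannot be told apart from less RNA per cell in such samples. Muscle fibre markers were high in all 6 muscles, with a summed level of 107343 to 116027 TPM in LrpprcWT and 96965 to 107407 TPM in LrpprcP27A, and 1 of 6, Mylpf, was called lower, or 2 lower and 1 higher with the muscles paired. Over all genes tested, the share called lower was 23.3%, or 48.4% with the muscles paired. Of the fibroblast markers, 5 of 6 were called lower, or 6 of 6 with the muscles paired. Their summed level was 275 to 460 TPM in LrpprcWT and 148 to 223 TPM in LrpprcP27A. All 5 macrophage markers were called lower, both unpaired and paired, with sums of 35.1 to 68.7 TPM and 12.4 to 24.6 TPM. Dpt of fibroblasts (log2 fold change -1.39) and Cd68 of macrophages (-1.69) had the largest decreases of their lists. On the median-of-ratios scale 2 of 6 fibroblast and 2 of 5 macrophage markers were called lower, where 6.03% of all genes were lower. In each list, 1 was called lower without LrpprcWT replicate 1, 2 without LrpprcP27A replicate 2 or 3, and 0 by limma without LrpprcWT replicate 3 (5 fibroblast and 4 macrophage markers at an unadjusted p under 0.05). Over all genes, 267, 520, 444 and 14 were called lower in these fits, in that order.

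Markers of further cell types were counted in the same way, beside 23.3% of all genes called lower, or 48.4% with the muscles paired. Of the tendon cell markers, 1 of 4 tested was called lower (Thbs4), or 2 of 4 with the muscles paired. Their sums were 93.5 to 166 TPM in LrpprcWT and 41.9 to 117 TPM in LrpprcP27A. Of the endothelial markers, 1 of 5 was called lower (Cdh5), or 5 of 5 with the muscles paired, with sums of 166 to 295 TPM and 122 to 170 TPM. Of the smooth muscle and pericyte markers, 1 of 5 was called lower (Cspg4), or 3 of 5 with the muscles paired, with sums of 274 to 390 TPM and 215 to 319 TPM. No marker of any list was at 0 throughout, and no marker list was called higher in any gene without pairing. The part of fibroblasts and macrophages in the decreases of the 8 genes was not tested.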

How the data were processed

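RNA-seq libraries were made with the TruSeq RNA Sample Prep v2 kit from TA muscles and sequenced as paired reads of 100 bp. Reads were trimmed by quality and length and aligned to GRCm39 with the CLC Genomics Workbench. Its RNA-Seq tool gave the TPM values that the authors deposited, and these sum to 1000000 in each library. Counts, depth and the gene annotation used are not given in the sources used here, so no counting error could be computed, and a fixed total makes each gene depend on all others.

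The members and lists were chosen with earlier results of these data known. Of 41709 genes, 11611 with a mean of at least 1 TPM were tested with limma 3.58.1 in R 4.3.3 on log2(TPM + 1), with a mean-variance trend and Benjamini-Hochberg adjustment, unpaired. The test was checked on simulated data with independent noise for each gene and muscle. That simulation held no pairing, no variation shared between genes and no general shift, so it does not vouch for the calls under those. The study used a rank test for differential expression. It listed genes at p under 0.05 with a fold cutoff, and used an unpaired t test for the genes it displayed. For the rank test the smallest p here is 0.0495, and the smallest adjusted p is 0.0969, so it could not be used at the adjusted threshold taken here. Fold changes are on the log2(TPM + 1) scale and understate those of low genes. Shares were compared by exact permutation.

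Named genes were the 10 members, up to 3 called genes with the largest decrease or increase and the 2 most abundant uncalled genes of each other list, the 5 genes most like the members' mean profile, Lrpprc, Col1a1, Col1a2 and Col3a1. P4hb, Plod3, R3hcc1 and Rn18s-rs5 fall outside this rule and were chosen after their values were seen. Of the marker lists, only the leading ones are named. Muscles of the same replicate number were taken to be the contralateral muscles of a mouse, which the labels do not state. In the methods of the study the 2 plasmids went into contralateral muscles, and its legend for the RNA-seq figure names contralateral muscles as well. The titles of libraries with the same replicate number also end in the same number in both groups. Deviations from the group mean correlated at 0.363, 0.528 and 0.356 between muscles of the same number over 11611 genes. In other combinations they correlated between -0.362 and 0.004. All paired results rest on this inference. Positions and promoters were read from GRCm39 with GENCODE vM39. Alternatives were 11 other settings and 6 fits that each left out 1 muscle.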

Additional observations from a re-analysis of the deposited data

How the results depend on the processing

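The 8 genes that fell passed the threshold in 71 of 135 alternative fits. Those 135 include the Kruskal-Wallis fits, which could not pass, as the smallest adjusted p of that test is 0.0969. Many of these fits change the test alone and keep the fold change. The other settings gave 80 fold changes that differ from those reported, and all 80 were below 0. For the 7 genes whose groups did not overlap, leaving out a muscle or changing the value added before the log could not change the sign. Only the scalings could have done so for them, and all fits reuse the same 6 libraries. The number of the 10 genes called lower was 8, beside 2705 of all genes. It was 0 without a filter on low values (8 at an unadjusted p under 0.05), where 42 of all genes were called. It was 0 with a linear model per gene without moderation (7 at an unadjusted p under 0.05), where 1 of all genes was called. The Kruskal-Wallis test called 0 of the 10 (7 at an unadjusted p under 0.05) and 0 of all genes. The number was 3 with median-of-ratios scaling (700 of all genes) and 3 with quantile normalization (518). After rescaling without mitochondrially encoded and ribosomal RNA genes it was 3 (660). When 1 muscle was left out, it ran from 0 to 8, and from 14 to 6918 over all genes. The replicate block and median-of-ratios scaling together gave 8 lower and 1 higher (1839 and 1561 of all genes). The replicate block alone gave 8 lower and 0 higher (5619 and 312 of all genes).

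Of the other collagen processing genes, 14 were called lower, and 18 with the replicate block, 13 with the block and median-of-ratios scaling together, 0 without a filter, 8 with a mean TPM of at least 5, 0 without moderation, 0 with the Kruskal-Wallis test, 8 with median-of-ratios scaling, 6 with quantile normalization, 6 after rescaling, and from 0 to 20 when 1 muscle was left out. The number called higher was 1 with the replicate block (312 of all genes) and 1 with the block and median-of-ratios scaling together (1561). It was also 1 with median-of-ratios scaling (609), with quantile normalization (493) and after rescaling (220). When 1 muscle was left out, it ran from 0 to 1, and from 3 to 304 over all genes.

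P4ha1 changed sign, to 0.34 with median-of-ratios scaling, with or without the replicate block, 0.30 with quantile normalization and 0.16 after rescaling, and ran from -0.24 to 0.15 when 1 muscle was left out. P4ha2 was at 0.34 with median-of-ratios scaling, 0.37 with quantile normalization and 0.18 after rescaling, and ran from -0.11 to 0.10 when 1 muscle was left out. The P4ha1 share was 1.91 percentage points higher in LrpprcP27A with P4ha3 in the sum, and its difference ran from -2.22 to 0.807 when 1 muscle was left out. The Plod1 share was 1.92 percentage points higher with Plod3 in the sum. Lox per 100 TPM of Col1a1 differed by -0.389 to 0.675. Median-of-ratios scaling raised the log2 fold changes of genes in general, whose median stood at -0.32 on the deposited scale. The P4ha3 added to the sum had a mean of 1.21 TPM in LrpprcWT and 0.161 TPM in LrpprcP27A. Otherwise the cause of each change given here was not tested, except that fits without a muscle rest on fewer samples. Depth is unknown, so what it limits cannot be stated. On the deposited scale the replicate block changed no call of the 10 genes, and on the median-of-ratios scale it moved the number called lower from 3 to 8.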
